A study of Mus musculus with 6 samples.

Results

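The genes described here are 39 enzymes and regulators that break down amino acids, out of 24434 gene symbols counted in mouse kidney. They were chosen by name and grouped by the amino acid they act on: 19 for the branched chain amino acids leucine, isoleucine and valine, 3 for lysine, 4 for proline and hydroxyproline, 5 for glycine and serine, 1 for glutamate, 3 for tyrosine and 4 for arginine and ornithine. All 39 were in the table and all passed the filter on low counts, which left 16373 genes. The libraries came from whole kidneys of mice on normal chow and carried the labels db/db (3 libraries) and db/m (3 libraries). The db allele impairs the leptin receptor gene. Animals labelled db/db carry it on both chromosomes, become obese and diabetic and are named in the design as the diabetic model. Those labelled db/m carry 1 copy and serve as controls. Every cell of the animal carries the allele, so the kidney carries it too. The sources used here give no sex, age or strain. Nor do they say that the libraries are of separate animals, and the p-values therefore speak of the spread among these libraries, which may be technical.

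Amino acids that are not used for protein are stripped of their nitrogen and their carbon skeletons are burned, mostly inside mitochondria. Branched chain amino acids are transaminated, decarboxylated by a dehydrogenase complex that a kinase switches off and a phosphatase switches on, and then handled much like fatty acids along an arm for each amino acid. In the kidney these enzymes are found mainly in the proximal tubule, which takes amino acids back from the filtrate, cleaves glycine, oxidises proline and hydroxyproline, and makes arginine for the circulation from citrulline. Ass1 and Asl belong to that synthesis, and are counted here with the arginine genes.

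The libraries held 25937756 to 35931140 counts. Levels are given in CPM, that is, counts relative to library size, with library sizes scaled by TMM factors, which correct for a few abundant genes taking much of a library. Kidney markers were present throughout, with Slc34a1, the proximal tubule phosphate transporter, at 4033 to 8185 CPM and Umod of the thick limb at 1635 to 3234 CPM. Lepr, the leptin receptor gene, was at 5.66, 2.54 and 5.15 CPM where the label was db/db and at 2.94, 2.48 and 3.61 CPM where it was db/m. Its groups overlapped, and a count over the whole gene need not show the splicing change of the db allele, so this did not check the labels. All 6 male-biased kidney genes listed were higher in db/db libraries, with a summed level of 41340 to 44900 CPM against 937 to 2690 CPM in db/m libraries. With no sex given for the animals, a difference in sex between the groups and the difference in genotype cannot be told apart in any value given here. Adipocyte markers were unevenly spread, their 6 genes summing to 289.7 CPM in db/db replicate 3 and to 158 CPM in db/m replicate 3, whereas the other libraries had 50.9 to 71.4 CPM.

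Breakdown genes moved in both directions, and the largest changes that passed the test were falls. Bcat1, at a log2 fold change of 1.97, did not pass. With the quasi-likelihood test of edgeR and p-values adjusted by Benjamini-Hochberg over all tested genes, 16 of the 39 were called at 0.05, 41.0%, where 24.0% of all tested genes were. Of these 7 were higher in db/db libraries, 17.9% of the 39 against 13.1% of all tested genes, and 9 were lower, 23.1% against 10.8%. Among the 9768 tested genes at least as abundant as the least abundant of the 39, 30.3% were called, 18.5% higher and 11.8% lower, so the share of the 39 that was higher lay at that background. Those at least 2-fold lower were Hpd, Gldc, Oat, Prodh2 and Shmt1, 5 of 39 where 4.10% of all tested genes were, and their calls held when any 1 library was left out. Shmt1 lies at that threshold, and DESeq2 put 4 past it. None was called at least 2-fold higher (edgeR 0 and DESeq2 0, with 1 at an unadjusted p below 0.05), where 3.71% of all tested genes were. The highest called value was Ass1 at 0.59 on the log2 scale. The groups did not overlap for 24 of the 39, against 44.6% of all tested genes. In the fit without db/db replicate 1 there were 4 higher and 6 lower (8.70% and 6.14% of all genes tested then). In that without db/db replicate 3 there were 3 and 5 (8.15% and 5.29%), and in that without db/m replicate 2 there were 3 and 6 (8.36% and 5.10%).

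The median log2 fold change, db/db over db/m, was 0.04 over the 39 genes and -0.06 over all tested genes. With library sizes left as total counts the median of all tested genes became -0.32, and 2 of the 39 were called higher and 15 lower, against 6.55% and 29.8% of all tested genes. Under that scaling all 9 falls were still called, Ivd and Pcca were still called higher, and Hibch, Hoga1, Hgd, Fah and Ass1 were not. Directions below are relative to TMM scaling. The plot of fold changes by amino acid shows the spread of the 39 values.

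**Figure D1:**
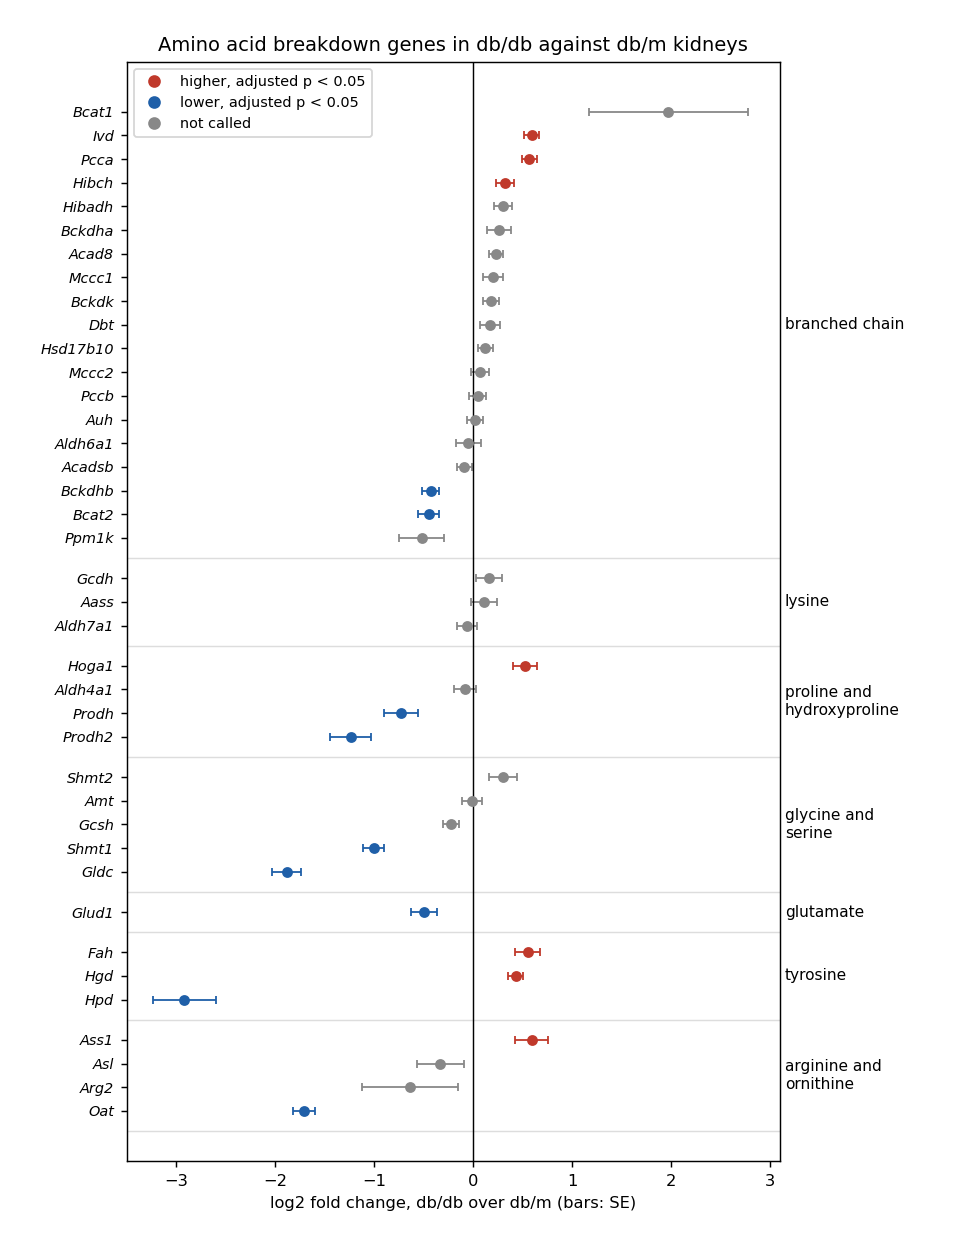
Log2 fold change of each of the 39 genes, db/db over db/m, on the horizontal axis, with genes grouped by amino acid down the page; points are edgeR estimates, bars are their SE and colours give the call at an adjusted p below 0.05. Hpd at -2.92, Gldc at -1.88 and Oat at -1.71 lie farthest to the left, and Bcat1 at 1.97 has the widest bar.

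The promoters of the 5 genes that were at least 2-fold lower are shown so that the letters upstream of the genes that fell most can be read beside their counts. Each is the 250 bases before the RefSeq start of the gene in build GRCm38.p6, which may not be the build of the counts, and 35 of the 39 genes had such a window. Capitals mark CCAAT (the CCAAT box), GTTAAT (a core of the site of the hepatocyte nuclear factor HNF1), GGGCGG (the GC box) and ACANNNTGT (the core shared by androgen and glucocorticoid receptor elements), searched on both strands. Among all 32851 windows of the same length CCAAT was in 33.8%, GTTAAT in 6.43%, GGGCGG in 32.7% and ACANNNTGT in 5.84%. Prodh2 held GTTAAT at 2 places, the others at 0, and ACANNNTGT was in none of the 5. GGGCGG matched at 4 places in Shmt1, a pair of them overlapping, and at 1 place each in Hpd and Gldc, and CCAAT was at 2 places in Oat, at 1 place each in Gldc, Prodh2 and Shmt1 and at 0 in Hpd. A match describes the letters and is no evidence of binding.
Hpd (chr5:123182724-123182973, strand -): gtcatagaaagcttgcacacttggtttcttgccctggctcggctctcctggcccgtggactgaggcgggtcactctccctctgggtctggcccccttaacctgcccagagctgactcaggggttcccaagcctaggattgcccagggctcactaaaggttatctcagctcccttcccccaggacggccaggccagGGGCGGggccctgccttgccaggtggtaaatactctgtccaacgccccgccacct
Gldc (chr19:30175442-30175691, strand -): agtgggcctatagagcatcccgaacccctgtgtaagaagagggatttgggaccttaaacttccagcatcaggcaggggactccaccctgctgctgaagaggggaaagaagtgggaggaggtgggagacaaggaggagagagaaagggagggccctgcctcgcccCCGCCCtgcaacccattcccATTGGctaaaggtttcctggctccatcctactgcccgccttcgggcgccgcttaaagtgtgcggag
Oat (chr7:132576399-132576648, strand -): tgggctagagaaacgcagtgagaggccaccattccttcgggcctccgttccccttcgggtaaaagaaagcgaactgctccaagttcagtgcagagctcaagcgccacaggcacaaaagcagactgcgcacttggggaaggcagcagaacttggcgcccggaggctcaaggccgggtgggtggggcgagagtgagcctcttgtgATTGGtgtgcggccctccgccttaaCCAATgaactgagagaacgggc
Prodh2 (chr7:30493408-30493657, strand +): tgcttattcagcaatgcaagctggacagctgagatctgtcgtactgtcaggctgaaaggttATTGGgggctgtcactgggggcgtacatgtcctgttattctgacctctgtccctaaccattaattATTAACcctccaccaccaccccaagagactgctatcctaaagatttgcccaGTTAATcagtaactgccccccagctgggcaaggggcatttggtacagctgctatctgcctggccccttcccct
Shmt1 (chr11:60811266-60811515, strand -): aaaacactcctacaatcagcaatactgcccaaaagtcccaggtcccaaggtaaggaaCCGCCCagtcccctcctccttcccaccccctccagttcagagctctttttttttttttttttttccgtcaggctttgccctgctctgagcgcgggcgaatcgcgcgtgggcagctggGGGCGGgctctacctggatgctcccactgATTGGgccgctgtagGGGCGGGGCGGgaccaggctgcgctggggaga

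In tyrosine breakdown Hpd fell and the later steps Hgd and Fah rose. Hpd, 4-hydroxyphenylpyruvate dioxygenase, which turns the keto acid of tyrosine into homogentisate, had the largest fall of the 39 genes. It was at 50.4, 84.2 and 82.4 CPM in db/db libraries and at 794, 439 and 408 CPM in db/m libraries. The groups were far apart, and db/m replicate 1 was the highest library. The log2 fold change was -2.92 (SE 0.32, edgeR adjusted p = 0.00145), a 7.56-fold fall, and ran from -3.09 to -2.54 when any 1 library was left out. Per kilobase of merged exons Hpd stood at 51.5 CPM in db/db libraries, 22nd of the 39 genes, and at 390 CPM in db/m libraries, 2nd after Ass1.

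The next enzymes of the same pathway rose. Hgd, homogentisate dioxygenase, was at 448, 483 and 474 CPM in db/db libraries and 357, 349 and 338 CPM in db/m libraries, with no overlap (log2 fold change 0.43, SE 0.08, edgeR adjusted p = 0.00888, and 0.101 with total counts only). Fah, fumarylacetoacetase, which makes the end products fumarate and acetoacetate, was at 590, 702 and 624 CPM against 491, 448 and 369 CPM in db/m libraries. Its log2 fold change was 0.55 (SE 0.13, edgeR adjusted p = 0.0213), and the call ended without db/db replicate 2, db/db replicate 3 or db/m replicate 2 (adjusted p = 0.0579 to 0.0685) and with total counts only (adjusted p = 0.0766). The ratio of Hpd to Fah counts within a library, which needs no scaling, was 0.112 ± 0.0243 in db/db libraries and 1.24 ± 0.338 in db/m libraries (SD, n = 3 each). Between Hgd and Fah acts Gstz1, maleylacetoacetate isomerase, which was also higher, by 0.42 on the log2 scale (SE 0.09, edgeR adjusted p = 0.0162). That call ended without db/db replicate 2, db/db replicate 3 or db/m replicate 2 (adjusted p = 0.0511 to 0.0569) and with total counts only (adjusted p = 0.141). Pcbd1, which recycles a pterin cofactor, had a log2 fold change of 0.31 (SE 0.08, edgeR adjusted p = 0.0332), and Tat, the tyrosine aminotransferase known from liver, was at 0.241 CPM or less in all libraries. The call on Pcbd1 ended when any library other than db/m replicate 1 was left out (adjusted p = 0.0681 to 0.107) and with total counts only (adjusted p = 0.612).

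Of the genes of the glycine cleavage system the decarboxylase was called lower and the others were not. Gldc, the P-protein that takes carbon dioxide from glycine, was at 108, 111 and 103 CPM in db/db libraries and 484, 380 and 326 CPM in db/m libraries. The db/db libraries lay within a narrow band below all db/m libraries, with a log2 fold change of -1.88 (SE 0.15, edgeR adjusted p = 0.000435), a 3.69-fold fall. Amt, the T-protein that passes the carbon to folate, was at 55.2 ± 5.41 CPM in db/db libraries and 55.6 ± 4.25 CPM in db/m libraries (SD, n = 3 each), a log2 fold change of -0.01 with a 95% interval of -0.25 to 0.23. Gcsh, the H-protein that carries the glycine remnant between subunits, was at 106 ± 7.26 and 124 ± 1.97 CPM (log2 fold change -0.22, edgeR adjusted p = 0.0777, and 0.00464 with total counts only). Dld, the subunit shared with the branched chain complex, had 0.18 (edgeR adjusted p = 0.19). Within libraries the ratio of Gldc to Amt counts was 1.97 ± 0.268 in db/db libraries and 7.09 ± 0.883 in db/m libraries.

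The serine hydroxymethyltransferases, which interconvert serine and glycine, differed by compartment. Shmt1, the cytosolic form, was at 42.9, 34.8 and 36.8 CPM in db/db libraries and 79.2, 81.7 and 69.2 CPM in db/m libraries, a log2 fold change of -1.01 (SE 0.11, edgeR adjusted p = 0.00146). Its groups did not overlap. The mitochondrial form Shmt2 was at 274, 311 and 275 CPM against 283, 199 and 215 CPM in db/m libraries, where db/m replicate 1 lay among the db/db values (log2 fold change 0.30, SE 0.14, edgeR adjusted p = 0.159, and 0.0194 without db/m replicate 1). Shmt2 counts were 7.60 ± 1.28 times those of Shmt1 in db/db libraries and 3.04 ± 0.573 times in db/m libraries. Over the 5 glycine and serine genes 0 rose (edgeR 0, DESeq2 0, and 0 at an unadjusted p below 0.05) and 2 fell, with a median of -0.22.

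**Figure D2:**
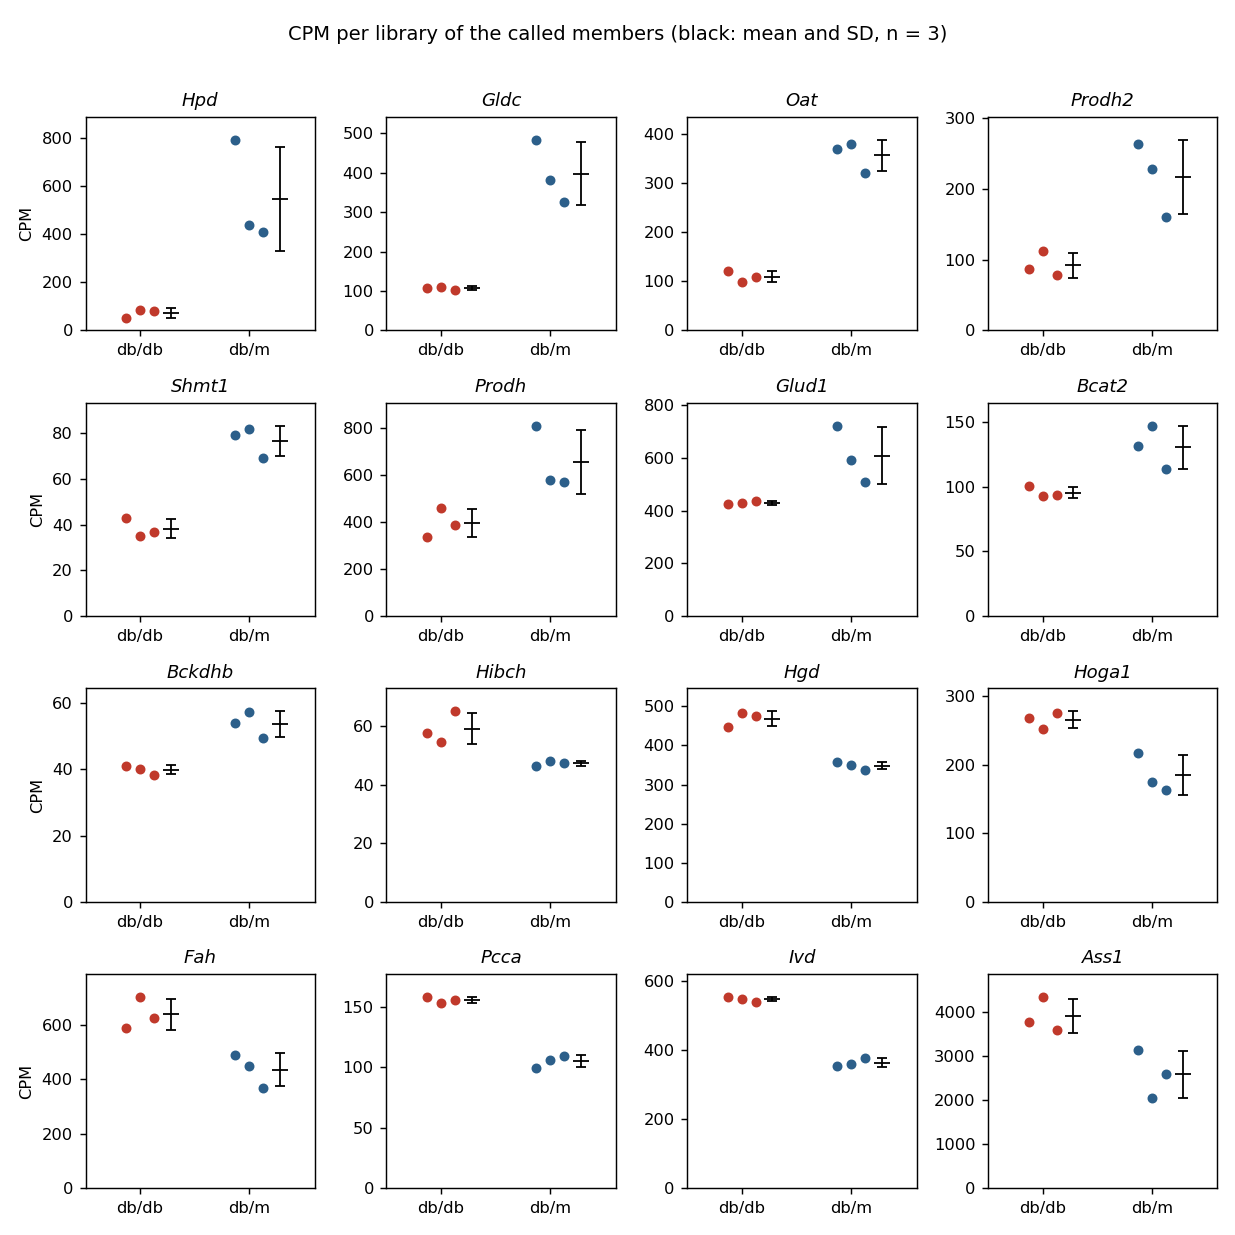
CPM per library (vertical axes, from 0) of the 16 called genes, ordered from the largest fall to the largest rise; dots are libraries, black marks are means with SD, and db/db stands left of db/m in each panel. The groups do not overlap in any of the 16 panels, and the distance is widest for Hpd, Gldc and Oat. These genes were picked by the same comparison, so the lack of overlap adds no support to the calls.

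Among arginine and ornithine genes, Oat fell and Ass1 rose. Oat, ornithine aminotransferase, which turns ornithine into a precursor of glutamate and proline, was at 121, 98.0 and 109 CPM in db/db libraries and 370, 380 and 320 CPM in db/m libraries. All db/db libraries were below all db/m libraries, with a log2 fold change of -1.71 (SE 0.11, edgeR adjusted p = 0.000226), a 3.27-fold fall that ran from -1.78 to -1.63 on the log2 scale when any 1 library was left out. Ass1, argininosuccinate synthase, the most abundant of the 39 genes per kilobase in both groups, was at 3779, 4344 and 3604 CPM in db/db libraries and 3130, 2057 and 2592 CPM in db/m libraries. Its log2 fold change was 0.59 (SE 0.17, edgeR adjusted p = 0.0415). The call ended when any library other than db/m replicate 1 was left out (adjusted p = 0.0815 to 0.12) and with total counts only (adjusted p = 0.126). Ass1 made up 28.6% to 32.0% of the summed CPM of the 39 genes in db/db libraries and 18.1% to 22.9% in db/m libraries. The mouse genome holds a processed copy of Ass1, so its count may include or lack shared reads.

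Asl, argininosuccinate lyase, which acts after Ass1, was at 269, 353 and 271 CPM in db/db libraries and 514, 337 and 272 CPM in db/m libraries. These values overlapped (log2 fold change -0.33, 95% interval -0.88 to 0.22, edgeR adjusted p = 0.332). Within libraries Ass1 counts were 13.2 ± 0.856 times those of Asl under db/db and 7.24 ± 1.99 times under db/m, without overlap. Arg2, the mitochondrial arginase, was low and uneven, at 11.0, 2.50 and 7.04 CPM in db/db libraries and 7.45, 14.0 and 10.4 CPM in db/m libraries (edgeR adjusted p = 0.366). Arg1, the liver arginase, was below the test's filter, and Odc1, which takes ornithine into polyamines, was at 1741, 2469 and 1943 CPM against 113, 101 and 179 CPM in db/m libraries. Odc1 is also on the list of male-biased kidney genes.

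Proline and hydroxyproline breakdown was lower at its entry. Prodh, proline dehydrogenase, was at 338, 458 and 389 CPM in db/db libraries and 810, 579 and 571 CPM in db/m libraries (log2 fold change -0.73, SE 0.17, edgeR adjusted p = 0.023). The call ended without db/db replicate 1 or db/db replicate 3 (adjusted p = 0.0793 and 0.0797). Prodh2, which oxidises hydroxyproline, mostly derived from collagen, was at 86.7, 112 and 78.1 CPM in db/db libraries and 264, 228 and 160 CPM in db/m libraries. Its log2 fold change was -1.24 (SE 0.21, edgeR adjusted p = 0.00679), a 2.36-fold fall, and the groups did not overlap. Aldh4a1, which completes both routes to glutamate or hydroxyglutamate, had 481 ± 35.1 CPM in db/db libraries and 509 ± 63.4 CPM in db/m libraries (SD, n = 3 each, 95% interval of the log2 fold change -0.35 to 0.19, and called lower with total counts only at -0.34, adjusted p = 0.036).

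The last steps of hydroxyproline breakdown were higher. Hoga1, the aldolase that splits off glyoxylate, was at 269, 252 and 276 CPM in db/db libraries and 217, 174 and 163 CPM in db/m libraries (log2 fold change 0.52, SE 0.12, edgeR adjusted p = 0.0203). That call ended without db/db replicate 1, db/db replicate 3 or db/m replicate 2 (adjusted p = 0.0622 to 0.0751) and with total counts only (adjusted p = 0.0902). Grhpr, which reduces glyoxylate, was at 316, 370 and 317 CPM in db/db libraries and 166, 146 and 154 CPM in db/m libraries, a rise of 1.11 on the log2 scale (SE 0.10, edgeR adjusted p = 0.000688). Pepd, the peptidase that frees proline and hydroxyproline from collagen fragments, rose by 0.59 (SE 0.10, edgeR adjusted p = 0.00589). Agxt, which detoxifies glyoxylate in liver, was below the test's filter.

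Glud1, glutamate dehydrogenase, which releases ammonia from glutamate, was at 424, 427 and 437 CPM in db/db libraries and 722, 590 and 508 CPM in db/m libraries. The db/db libraries were nearly equal, with a coefficient of variation of 1.58%, against 17.8% in db/m libraries. Its log2 fold change was -0.50 (SE 0.13, edgeR adjusted p = 0.0327), and the call ended without any of the db/db libraries or without db/m replicate 2 (adjusted p = 0.0792 to 0.1).

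Branched chain genes shifted little and in both directions, with 3 of 19 higher, 2 lower and a median of 0.17, which became -0.09 with total counts only. Their share called, 26.3%, was near the 24.0% of all tested genes. Ivd, isovaleryl-CoA dehydrogenase of the leucine arm, was at 552, 547 and 539 CPM in db/db libraries and 352, 358 and 377 CPM in db/m libraries. The groups were tight and apart (log2 fold change 0.59, SE 0.08, edgeR adjusted p = 0.00249), and the call held when any 1 library was left out and with total counts only (adjusted p = 0.0187). Pcca, the biotin-bearing subunit of propionyl-CoA carboxylase, into which the isoleucine and valine arms feed, was at 158, 153 and 156 CPM in db/db libraries and 99.6, 106 and 109 CPM in db/m libraries. The call on Pcca, at a log2 fold change of 0.57 (SE 0.07, edgeR adjusted p = 0.0025), held in the same way. Its partner Pccb was at 351 ± 13.9 and 340 ± 22.3 CPM (log2 fold change 0.04, 95% interval -0.15 to 0.24), and the ratio of Pcca to Pccb counts was 0.445 ± 0.023 in db/db libraries and 0.311 ± 0.0331 in db/m libraries. Hibch, the hydroxyisobutyryl-CoA hydrolase of the valine arm, was at 57.5, 54.6 and 64.9 CPM against 46.3, 48.2 and 47.2 CPM in db/m libraries (log2 fold change 0.32, SE 0.09, edgeR adjusted p = 0.0372). That call ended when any library other than db/db replicate 2 was left out (adjusted p = 0.0703 to 0.118), without the filter on low counts, and with total counts only (adjusted p = 0.633).

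At the start of the pathway the mitochondrial aminotransferase Bcat2 fell, at 100.3, 92.8 and 93.4 CPM in db/db libraries and 131, 147 and 113 CPM in db/m libraries (log2 fold change -0.45, SE 0.11, edgeR adjusted p = 0.0231). The call ended when any library other than db/m replicate 3 was left out (adjusted p = 0.0539 to 0.0854). Bcat1, the cytosolic form, was the least even of the 39 genes, at 89.6, 14.1 and 79.1 CPM in db/db libraries and 4.40, 12.9 and 29.3 CPM in db/m libraries. The db/db replicate 2 value lay within the db/m range, and the log2 fold change of 1.97 (SE 0.80) did not pass (edgeR adjusted p = 0.115), and it became 2.82 without db/m replicate 3 (adjusted p = 0.0636).

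Subunits of the branched chain dehydrogenase complex did not move together. Bckdhb, the beta chain of the decarboxylase, fell, with 41.1, 40.0 and 38.4 CPM in db/db libraries and 53.9, 57.3 and 49.5 CPM in db/m libraries (log2 fold change -0.43, SE 0.09, edgeR adjusted p = 0.0128). The call ended without db/db replicate 3 (adjusted p = 0.0588) and without db/m replicate 2 (adjusted p = 0.0519). Bckdha, the alpha chain that carries the regulatory phosphate, was at 422, 509 and 448 CPM against 429, 386 and 337 CPM in db/m libraries, with overlap (log2 fold change 0.26, SE 0.12, edgeR adjusted p = 0.152). The ratio of Bckdhb to Bckdha counts was 0.0872 ± 0.00955 in db/db libraries and 0.14 ± 0.0128 in db/m libraries, without overlap. Dbt, the transacylase core, was at 78.9, 68.7 and 86.0 CPM against 65.9, 69.5 and 72.0 CPM in db/m libraries (log2 fold change 0.17, SE 0.10, edgeR adjusted p = 0.242).

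The regulators of the complex lay on opposite sides of zero without passing the test. Bckdk, the kinase that switches the complex off, was at 84.6, 94.0 and 83.3 CPM in db/db libraries and 76.5, 76.3 and 78.4 CPM in db/m libraries (log2 fold change 0.18, SE 0.08, edgeR adjusted p = 0.135, and -0.08 with total counts only). Ppm1k, the phosphatase that switches it on, was at 11.5, 19.5 and 21.2 CPM against 23.3, 22.9 and 28.8 CPM in db/m libraries (log2 fold change -0.52, SE 0.23, edgeR adjusted p = 0.135, and 0.0348 with total counts only). The groups did not overlap for either gene. Bckdk counts were 7.34, 4.82 and 3.92 times those of Ppm1k in db/db libraries and 3.28, 3.33 and 2.73 times in db/m libraries.

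The remaining branched chain genes were not called. In the leucine arm Mccc1 and Mccc2, the subunits of methylcrotonyl-CoA carboxylase, and Auh, the following hydratase, had log2 fold changes of 0.20, 0.07 and 0.02, and all 3 were below 0 with total counts only, where Auh was called lower at -0.24 (adjusted p = 0.0419). In the valine arm Acad8, isobutyryl-CoA dehydrogenase, and Hibadh, hydroxyisobutyrate dehydrogenase, had 0.23 (edgeR adjusted p = 0.0512) and 0.30 (edgeR adjusted p = 0.057), and DESeq2 called both higher, although Acad8 was at -0.03 with total counts only. Hibadh also passed without db/m replicate 1 (adjusted p = 0.0224). Aldh6a1, methylmalonate semialdehyde dehydrogenase, was at 528 ± 62.4 and 546 ± 65.8 CPM (95% interval of the log2 fold change -0.35 to 0.25). In the isoleucine arm Acadsb, the short and branched chain acyl-CoA dehydrogenase, had -0.09 (SE 0.07), and was called lower with total counts only at -0.35 (adjusted p = 0.0151). Hsd17b10, the following dehydrogenase, had 0.12 (SE 0.08, and -0.14 with total counts only). The groups did not overlap for either gene.

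**Figure D3:**
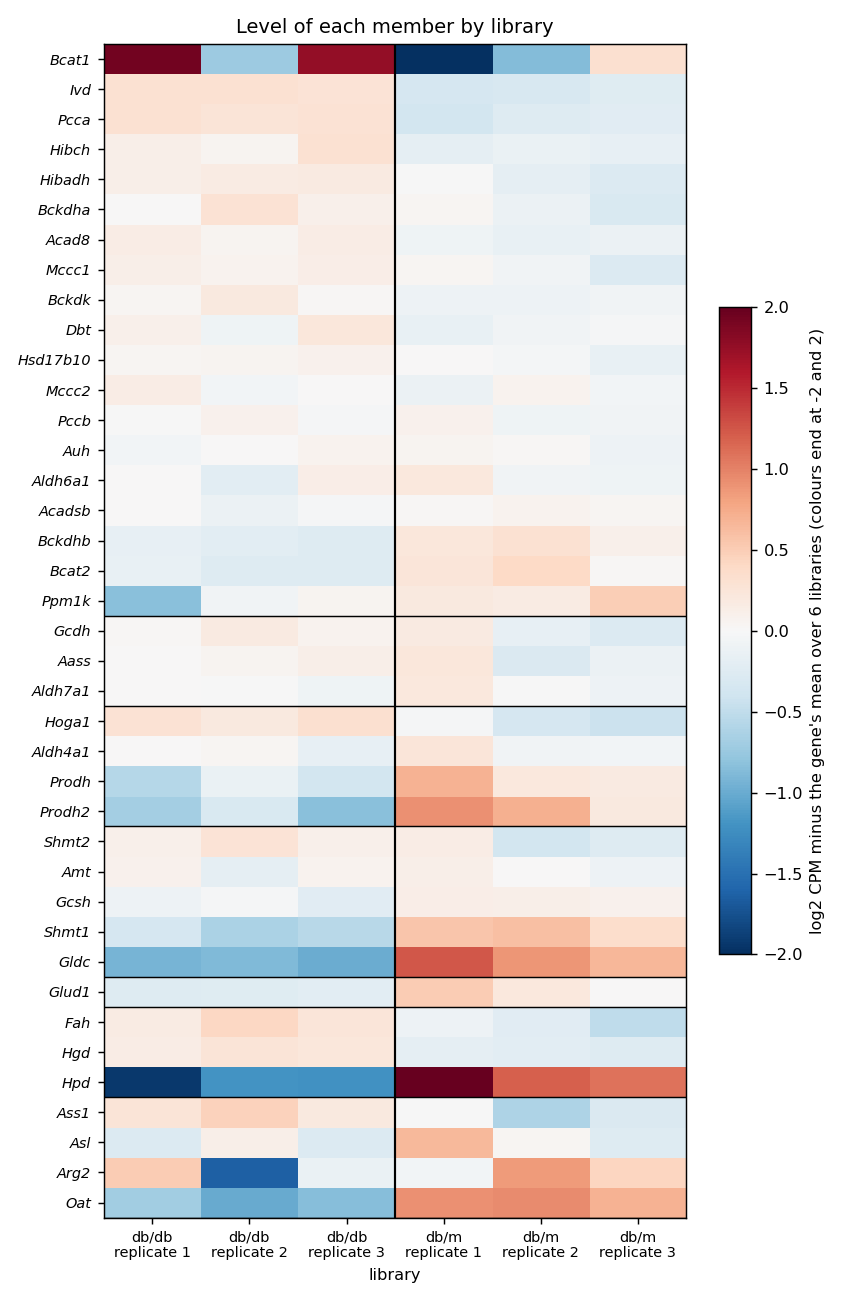
Level of each of the 39 genes (rows, grouped by amino acid) in each library (columns, db/db left of db/m), as log2 CPM minus the mean of that gene over the 6 libraries; colours end at -2 and 2. Hpd, Gldc, Oat, Prodh2 and Shmt1 lie below their mean (blue) in all db/db libraries and above it (red) in all db/m libraries, and Bcat1 and Arg2 are uneven within groups.

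None of the 3 lysine genes, which are not the whole pathway, was called (edgeR 0 and DESeq2 0, with 0 at an unadjusted p below 0.05). Aass, which joins lysine to oxoglutarate and splits the product, was at 436 ± 17.4 CPM in db/db libraries and 404 ± 74.3 CPM in db/m libraries (95% interval of the log2 fold change -0.21 to 0.43, SD, n = 3 each). Aldh7a1, aminoadipic semialdehyde dehydrogenase, was at 419 ± 12.7 and 439 ± 49.8 CPM (interval -0.30 to 0.17, and called lower with total counts only, adjusted p = 0.0276). Gcdh, glutaryl-CoA dehydrogenase, was at 553 ± 31.3 and 493 ± 83.9 CPM (interval -0.14 to 0.47). In each case db/m replicate 1 was the highest library, and the db/db libraries spread less than the db/m libraries. Hykk, which phosphorylates hydroxylysine, lies outside the 3 and was at 249, 267 and 238 CPM in db/db libraries and 134, 96.6 and 141 CPM in db/m libraries, a rise of 1.02 on the log2 scale (SE 0.15, edgeR adjusted p = 0.00374).

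Summed by amino acid, the groups separated for some and not for others. Proline and hydroxyproline genes summed to 1183 to 1328 CPM in db/db libraries and 1368 to 1873 CPM in db/m libraries. Glycine and serine genes summed to 571 to 619 CPM in db/db libraries and 785 to 1032 CPM in db/m libraries. These sums, like Glud1, were lower under db/db with no overlap. Branched chain genes summed to 3681 to 3834 CPM in db/db libraries and 3124 to 3459 CPM in db/m libraries, higher with no overlap. Lysine, tyrosine and arginine sums overlapped, although the tyrosine and arginine genes include Hpd and Oat. The arginine sum was mostly Ass1, so it says little of Oat. Ass1 averaged 3909 CPM of a mean sum of 4323 CPM in db/db libraries. In db/m libraries it averaged 2593 CPM of 3335 CPM. All 39 genes together came to 12920 ± 560 CPM in db/db libraries and 12340 ± 1718 CPM in db/m libraries (SD, n = 3 each), with db/m replicate 1 highest at 14320 CPM. The sums depended on the scaling. As a share of a library's total count, without TMM factors, the branched chain genes took 0.331% to 0.352% in db/db libraries and 0.35% to 0.367% in db/m libraries, which overlap with db/db on the lower side, and all 39 genes took 1.16% to 1.22% in db/db libraries and 1.25% to 1.52% in db/m libraries, without overlap. The shares of proline, glycine and serine, and glutamate genes were lower under db/db without overlap as their TMM-scaled sums were, and those of lysine and tyrosine genes then no longer overlapped either, with db/db below.

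**Figure D4:**
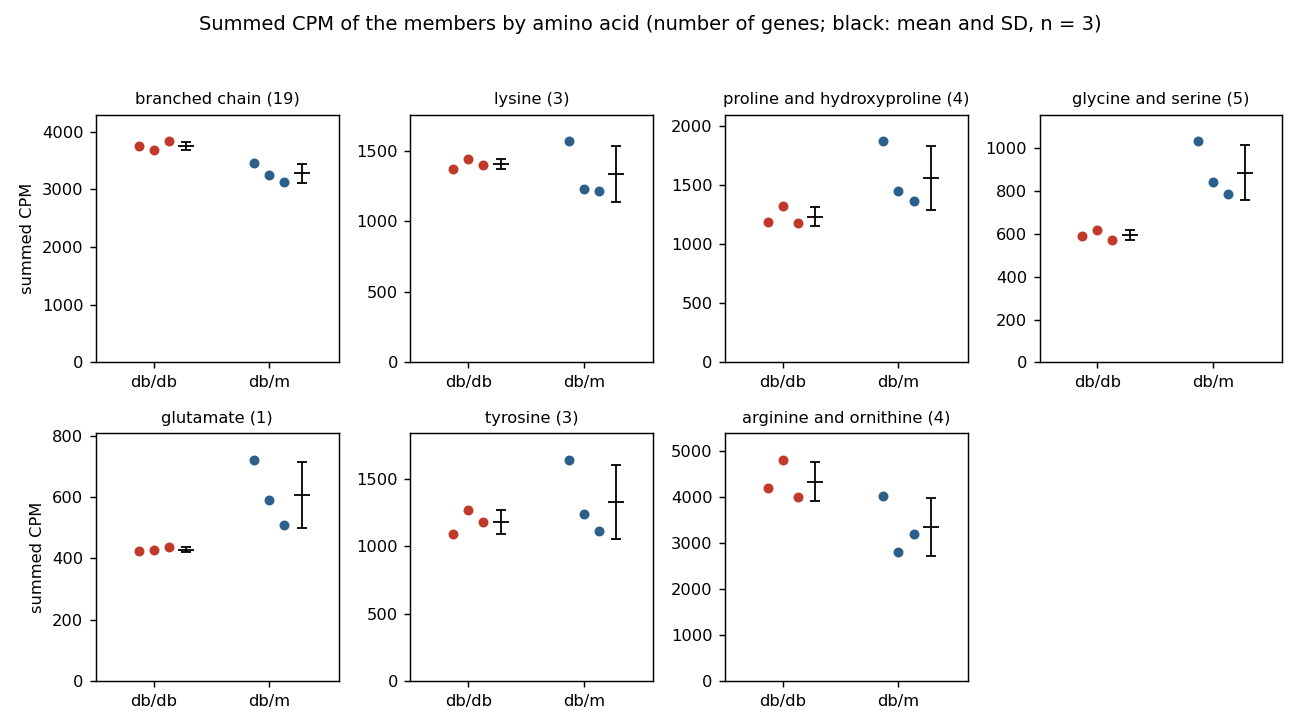
Summed CPM of the genes of each amino acid per library (vertical axes, from 0), with the number of genes in brackets; dots are libraries, black marks are means with SD, and db/db stands left of db/m. Sums for proline and hydroxyproline, glycine and serine, and glutamate are lower in all db/db libraries, the branched chain sum is higher with TMM scaling though not as a share of total counts, and the other 3 overlap.

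**Figure D5:**
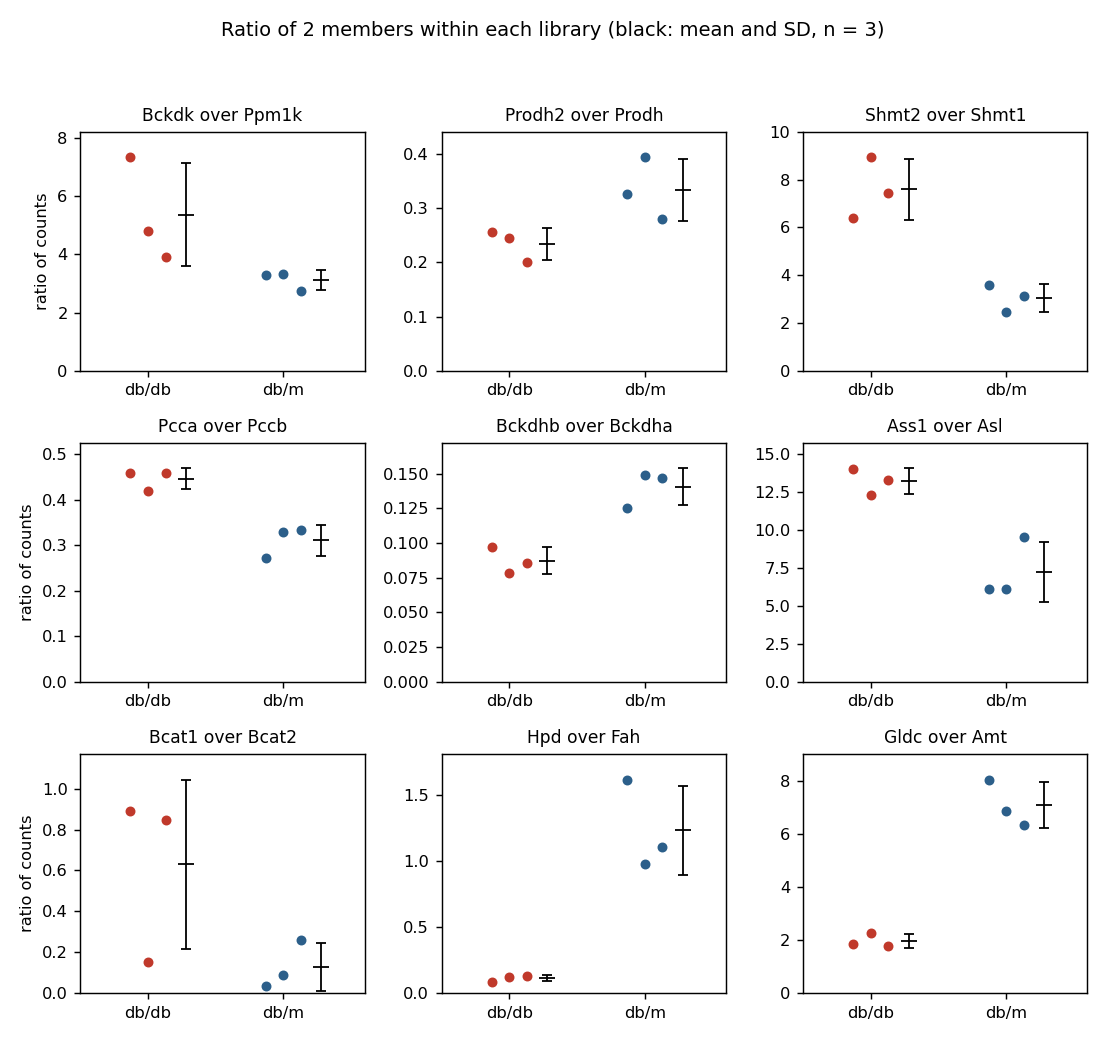
Ratio of the counts of a gene to those of another of the same pathway within each library (vertical axes, from 0); dots are libraries, black marks are means with SD, and db/db stands left of db/m. The groups overlap in 1 of the 9 panels, that of Bcat1 over Bcat2, and the ratio of Hpd to Fah is 0.112 in db/db libraries and 1.24 in db/m libraries on average. The 9 pairs were chosen with earlier results of these data known. How often other gene pairs separate was not computed, so the number of panels without overlap has no background.

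Other genes of the same pathways, 73 chosen for their function, rose more often than they fell with TMM scaling, but not with total counts only. In the table were 71 of them, 63 were tested, and 22 were called higher and 5 lower, 34.9% and 7.94%, against 13.1% and 10.8% of all tested genes. Odc1, of the male-biased list, is among the 22. With total counts only 10 of the 63 were higher and 15 lower, where 6.55% and 29.8% of all tested genes were. Without db/db replicate 3 there were 13 higher, where 8.15% of all genes tested then were. In the list of branched chain, propionate and electron transfer genes 5 of 13 rose and the other 8 were not called. They were led by Acat1, the thiolase that ends the isoleucine arm and also serves ketone bodies, at 1041, 940 and 1044 CPM in db/db libraries and 448, 409 and 435 CPM in db/m libraries (log2 fold change 1.23, SE 0.09, edgeR adjusted p = 0.000333). Etfdh, which takes electrons from Ivd, Acad8, Acadsb, Gcdh and other dehydrogenases to ubiquinone, rose by 0.58 (SE 0.10, edgeR adjusted p = 0.00636), and Etfb, a subunit of the carrier before it, by 0.44 (SE 0.11, edgeR adjusted p = 0.0245). The call on Etfb ended without db/db replicate 2, db/db replicate 3, db/m replicate 2 or db/m replicate 3 (adjusted p = 0.0544 to 0.0696) and with total counts only (adjusted p = 0.184).

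In the glycine, serine and threonine list 4 of 10 tested rose and the other 6 were not called. Sardh, which makes glycine from sarcosine, was at 587, 679 and 554 CPM in db/db libraries and 298, 231 and 253 CPM in db/m libraries (log2 fold change 1.22, SE 0.13, edgeR adjusted p = 0.00128). Of 9 sulfur amino acid genes 4 rose, among them Csad, an enzyme of taurine synthesis, by 1.33 (SE 0.16, edgeR adjusted p = 0.00203), and Tst, a sulfur transferase, by 0.84 (SE 0.14, edgeR adjusted p = 0.00634). Of the 5 falls, a pair were histidine genes: Ftcd, which passes the formimino group of histidine to folate, at 21.2, 19.0 and 18.2 CPM against 59.1, 31.4 and 56.3 CPM in db/m libraries (log2 fold change -1.33, SE 0.23, edgeR adjusted p = 0.00769), and Uroc1, urocanate hydratase, at -0.99 (SE 0.17, edgeR adjusted p = 0.00766). Asrgl1, an asparaginase of isoaspartyl peptides, had -1.22 (SE 0.16, edgeR adjusted p = 0.00283). Gpt, the alanine aminotransferase, also fell and is named after its values were seen, at 45.9, 55.2 and 48.2 CPM in db/db libraries and 111, 80.6 and 109 CPM in db/m libraries (log2 fold change -1.01, SE 0.14, edgeR adjusted p = 0.00339).

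Markers of cell types moved beside these results, and in whole kidney a change in the number of cells of a type and a change in RNA per cell cannot be told apart. The 10 markers of the early proximal tubule segments S1 and S2 summed to 10470 to 13160 CPM in db/db libraries. In db/m libraries they summed to 8353 to 11510 CPM, with db/m replicate 1 the highest. That library was also the highest of its group for Hpd, Prodh, Glud1 and Asl, and for Ass1, Fah and Hgd, which rose. It was not the highest for Oat or Shmt1, which fell. Slc34a1 made up the largest part of the marker sum, at a mean of 6956 CPM in db/db libraries and 4927 CPM in db/m libraries. Of these markers 3 fell and the other 7 were not called, and the list's median log2 fold change was -0.16. The 7 markers of the last segment S3 summed to 3159 to 4291 CPM in db/db libraries and 393 to 645 CPM in db/m libraries, and 6 rose. Slc7a13 and Cyp7b1 are on both the S3 list and the list of male-biased genes, so these lists are not separate observations. Of the male-biased genes, Kap, an androgen-regulated kidney gene, averaged 34970 CPM in db/db libraries and 641 CPM in db/m libraries, and Slco1a1, an organic anion transporter, 351 CPM in db/db libraries and 0.278 CPM in db/m libraries. The 6 liver markers summed to 2108 to 2914 CPM in db/db libraries and 457 to 933 CPM in db/m libraries, with 2 higher and 1 lower, mostly through Cyp2e1, while Alb, the defining liver gene, was at 4.53 to 16.9 CPM in all libraries. Leukocyte markers summed to 54.5 to 82.4 CPM in db/db libraries and 29.4 to 59.4 CPM in db/m libraries, a difference carried by Csf1r at a log2 fold change of 0.75 (edgeR adjusted p = 0.0874), while the other 5 lay below 0, the list's median was -0.47 and no leukocyte marker passed the test (1 at an unadjusted p below 0.05). The part of these markers in the changes of the breakdown genes was not tested. Without db/db replicate 3 and db/m replicate 3, the libraries with most adipocyte RNA, 2 of the 39 genes were higher and 5 lower, against 6.40% and 4.02% of all tested genes, and the 5 were those named as at least 2-fold lower.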

How the data were processed

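RNA-seq of whole kidney gave a table of whole-number counts per gene, which the authors deposited for all 6 libraries, 3 db/db and 3 db/m. The submitters' processing notes name fastp, FastQC, HISAT2, SAMtools, StringTie and DESeq2, with no roles. Genome build, annotation, counting settings and use of strand in counting are not stated there, so reads of overlapping or near-identical genes may be shared.

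The deposited counts were analysed in R 4.3.3 with edgeR 4.0.16: filterByExpr, TMM scaling, the quasi-likelihood test without covariates, and Benjamini-Hochberg adjustment over all 16373 tested genes, called at an adjusted p below 0.05. CPM use TMM-scaled library sizes. The SE is the log2 fold change divided by the square root of its F, and intervals are at 95%. The steps were tested on simulated data. Replicate pairs differed by more than sampling noise, so all 6 were kept. The alternatives were DESeq2 1.42.0 (size factors in edgeR, and its Wald test), total counts as library sizes, no filter, a filter of 1 CPM and 10 counts in 3 libraries, a replicate block, leaving out each library, and leaving out replicate 3 of both groups.

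The genes, lists and tests were chosen with earlier results of these data known. All 39 genes are named, and of each list of other pathway genes at most 4, by smallest p, 3 in the commoner direction and 1 in the other; a few genes that this rule or the marker lists hold are not reported here. Of the 73 other genes, Pycr3 is held in the table under the symbol Pycrl. Lengths are merged exons of the GENCODE M21 annotation and promoters are from RefSeq, both used only for lengths and letters.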

Additional observations from a re-analysis of the deposited data

How the results depend on the processing

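With total counts as library sizes, 1072 genes were higher and 4883 lower, among them 2 and 15 of the 39 and 10 and 15 of the other pathway genes. Medians were then -0.32 over all tested genes, -0.21 over the 39, -0.089 for branched chain, -0.15 for lysine, -0.66 for proline, -0.49 for glycine and serine, -0.76 for glutamate, 0.17 for tyrosine and -0.74 for arginine genes. Directions turned for Dbt (-0.089), Bckdk (-0.083), Mccc1 (-0.057), Mccc2 (-0.19), Auh (-0.24), Acad8 (-0.026), Hsd17b10 (-0.14), Pccb (-0.21), Aass (-0.15), Gcdh (-0.093) and Pipox (-0.044). The shift of all genes follows from dropping the TMM factors. DESeq2 called 8 other pathway genes lower, and Amt turned to 0.00531 with its size factors and 0.00551 with its Wald test. Without a filter the median of all genes was -0.094.

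Leaving out 1 library gave 1374 to 2011 genes higher and 851 to 1523 lower, 3 to 8 and 5 to 9 of the 39, and 13 to 21 and 4 to 5 of the other pathway genes. Medians ran from 0.11 to 0.18 for branched chain, 0.003 to 0.28 for lysine and -0.70 to -0.35 for arginine genes. Directions turned for 6 genes, whose values with 1 library or replicate 3 of both groups left out ran from -0.058 to 0.068 for Auh, -0.18 to 0.071 for Aldh6a1, -0.12 to 0.042 for Aldh7a1, -0.13 to 0.039 for Aldh4a1, -0.10 to 0.073 for Amt and -0.38 to 0.30 for Amdhd1. Without replicate 3 of both groups 1052 genes were higher and 660 lower, 2 and 5 of the 39, and 10 and 2 of the other pathway genes; the branched chain median was 0.11 and Auh was at -0.058. These fits have fewer libraries.

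Deviations of same-numbered libraries from their group means correlated at -0.15, 0.0574 and 0.143, so the numbers were not taken as pairs, and not every library correlated best with its own number. With a replicate block 1313 genes were higher and 973 lower, 3 and 6 of the 39, and 16 and 4 of the other pathway genes. Of the 16 calls among the 39, 8 held in all 6 fits that left out 1 library. The cause of the other differences was not tested.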

Other observations

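Over the 6 libraries the genes whose log2 CPM followed that of Hpd most closely were Cep350, a centrosomal protein gene (Pearson r = 0.997), Zbed3 (r = 0.9967) and Tmod4, a tropomodulin gene (r = 0.9945). These are a description of 6 libraries in 2 groups, and each of the 3 genes was also called lower in db/db libraries. Tmod4 was at 0.281, 0.476 and 0.547 CPM in db/db libraries and 3.56, 2.71 and 2.51 CPM in db/m libraries, from 7 to 15 counts and 78 to 107 counts per library.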
